A study of Mus musculus with 6 samples.

Results

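Cytosolic ribosomal protein genes were examined in white adipose tissue of mice lacking neurotensin receptor 2 in adipocytes. The genes were taken by symbol as Rpl (large subunit) or Rps (small subunit) followed by a number and at most one of the letters a, x, y or l, together with Rplp0, Rplp1, Rplp2 and Rpsa. Rows named as pseudogenes and the Rps6k kinases were not included. This gave 79 of the 21456 genes in the table, 31 of the 40S and 48 of the 60S subunit, and all 79 averaged at least 10 normalized counts and were tested. The rule used symbols and mean levels, not the difference between genotypes.

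RNA-seq was performed on adipose tissue of 3 control mice, which were Ntsr2 flox/flox, and 3 Ntsr2 AKO mice (Adipoq-cre::Ntsr2 flox/flox), all fed a chow diet. Both groups carried the floxed Ntsr2 alleles, and the groups differed in Adipoq-cre, which is active in adipocytes. Other cells of the tissue keep Ntsr2, and the labels give neither the age nor the fat depot. Control mice had 60405373 to 66098226 recovered reads and Ntsr2 AKO mice 54085088 to 56268725, so every control mouse had more reads counted in genes. A normalized count is the read count of a gene divided by one size factor for its mouse. Log2 fold changes (log2FC) are Ntsr2 AKO minus control on log2(normalized count + 1), and p values are from limma with Benjamini-Hochberg adjustment over the 16157 genes with a mean of at least 10. Each sample was taken as 1 mouse, and the p values set the difference between the groups against the spread between these mice.

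The targeted gene, Ntsr2, had normalized counts of 83.8, 64.0 and 152.5 in control mice against 3.10, 8.29 and 0 in Ntsr2 AKO mice; its log2FC was -4.81 with a standard error (SE) of 0.91 and a limma adjusted p of 0.499, and DESeq2 called it (adjusted p = 1.1e-04). The adipocyte hormone gene Adipoq was abundant in every mouse, between 163803 and 220865 normalized counts. The summed counts of 18 skeletal muscle markers were 3364, 3278 and 3538190 in control mice against 3906, 117592 and 256225 in Ntsr2 AKO mice. Control 5, Ntsr2 AKO 4 and Ntsr2 AKO 5 therefore stood apart by muscle transcripts, and values without these mice are given where they change a result.

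A cytosolic ribosome consists of a 40S subunit, which reads the mRNA, and a 60S subunit, which forms the peptide bonds. Each subunit is built in the nucleolus from ribosomal RNA and one copy of most of its proteins, so cells make these proteins in matched amounts. Many ribosomal protein mRNAs begin with a cytosine followed by a run of pyrimidines, the 5′ terminal oligopyrimidine (TOP) tract, through which mTORC1 and LARP1 control their translation. Adipocytes depend on this supply for the synthesis of secreted proteins such as adiponectin and adipsin.

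The sequence around the annotated transcription start was read for the genes on which the results turn. Each window of 30 bases holds 10 bases before the start and 20 bases from the start on, in the direction of the gene, from RefSeq on GRCm38.p6. Capitals mark a C followed by at least 4 bases that are each C or T, beginning within 5 bases of the start, searched on the sense strand only. Rpl13a, Rps24 and Rpl35a are among the genes with the largest positive fold changes, Rps6 is the classical phosphorylated protein of the 40S subunit, and Rpl24, Rpl4, Rplp0 and Rpl3l are 4 of the 5 genes that followed the others least, as given below.
Rpl13a (chr7:45128726-45128755, minus strand): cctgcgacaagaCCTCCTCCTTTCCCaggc
Rps24 (chr14:24490668-24490697, plus strand): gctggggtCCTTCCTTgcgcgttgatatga
Rpl35a (chr16:33056472-33056501, plus strand): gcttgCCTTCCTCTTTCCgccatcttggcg
Rps6 (chr4:86857348-86857377, minus strand): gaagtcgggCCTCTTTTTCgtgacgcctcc
Rpl24 (chr16:55966265-55966294, plus strand): gctgttgctaggaaacagactgggcgctcg
Rpl4 (chr9:64173377-64173406, plus strand): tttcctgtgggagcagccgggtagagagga
Rplp0 (chr5:115559457-115559486, plus strand): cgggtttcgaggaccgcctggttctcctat
Rpl3l (chr17:24727816-24727845, plus strand): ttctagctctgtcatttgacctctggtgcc

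Start windows were found for 59 of the 79 genes by symbol. A tract by this definition was present in 28 of the 59 (47.5%), and in 21.2% of all 27025 symbols with a window. Where a gene had several annotated starts, a window with a tract was taken if there was one, and otherwise the first. The median log2FC was 0.09 for the 28 genes with a tract and 0.12 for the 31 genes without one. Most of these 31 genes were not among the 5 that followed the others least. The windows printed above are of chosen genes, and whether genes without a tract followed the others less was not tested. A window without these letters says only that they are not there, since the annotated start may differ from the start used in fat.

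Levels of the ribosomal protein genes spanned a wide range, and 11 of the 79 were among the 200 genes with the highest mean normalized count. Mean normalized counts ran from 202 for Rpl39l to 48867 for Rpsa, with a median of 19193, and 75 genes had a mean of at least 4000. Per kilobase of transcript, which allows levels of different genes to be compared, the median was 24951 normalized counts, and 10639 and 38949 were the 10th and 90th percentiles. Rpl41, which encodes the shortest ribosomal protein, was highest at 81382 per kilobase, followed by Rps24 (63731), Rps12 (62355), Rplp1 of the acidic stalk (58722) and Rpl13a (56395). At the low end were Rpl39l at 298, Rpl3l at 774 and Rpl24 at 2114 per kilobase. Rpl39l and Rpl3l encode paralogs of Rpl39 and Rpl3 that are known from testis and from muscle, respectively. The order of levels per kilobase was alike in all mice, with a Spearman rho between 0.91 and 0.98 over the 79 genes in the 15 pairs of mice, which share one annotation of lengths.

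The share of all normalized counts held by the 79 genes was 2.34%, 2.90% and 2.28% in control mice against 2.43%, 2.99% and 3.39% in Ntsr2 AKO mice. Averages were 2.51% ± 0.34 and 2.935% ± 0.48 (SD, n = 3 mice each). The groups overlapped, since control 4 lay above Ntsr2 AKO 3, and the highest share was that of Ntsr2 AKO 5. With mitochondrially encoded genes and muscle markers left out of the total, the shares were 2.55%, 3.33% and 2.75% against 2.69%, 3.35% and 3.89%, in nearly the same order. The balance between the subunits varied little, and 40S genes held 38.8% to 39.6% of the ribosomal protein counts in control mice against 39.2% to 39.7% in Ntsr2 AKO mice. In tissue RNA of this kind, fewer cells of a type and less RNA per cell cannot be told apart.

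The genes were high or low together in a given mouse, and the mice of the 2 genotypes overlapped. The median gene lay at -0.28, 0.21 and -0.15 from its own mean over the 6 mice (log2) in control 3, 4 and 5, and at -0.22, 0.10 and 0.32 in Ntsr2 AKO 3, 4 and 5. Control 4, Ntsr2 AKO 4 and Ntsr2 AKO 5 were thus high and the other 3 mice were low. Of the 79 genes, 1, 76 and 10 lay above their own mean in control 3, 4 and 5, and 1, 62 and 76 did in Ntsr2 AKO 3, 4 and 5. The corresponding medians of all genes tested lay within 0.02 of 0 in every mouse. The 40S and 60S genes shared the pattern, with medians of -0.28 for both in control 3 and of 0.33 and 0.30 in Ntsr2 AKO 5.

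**Figure D1:**
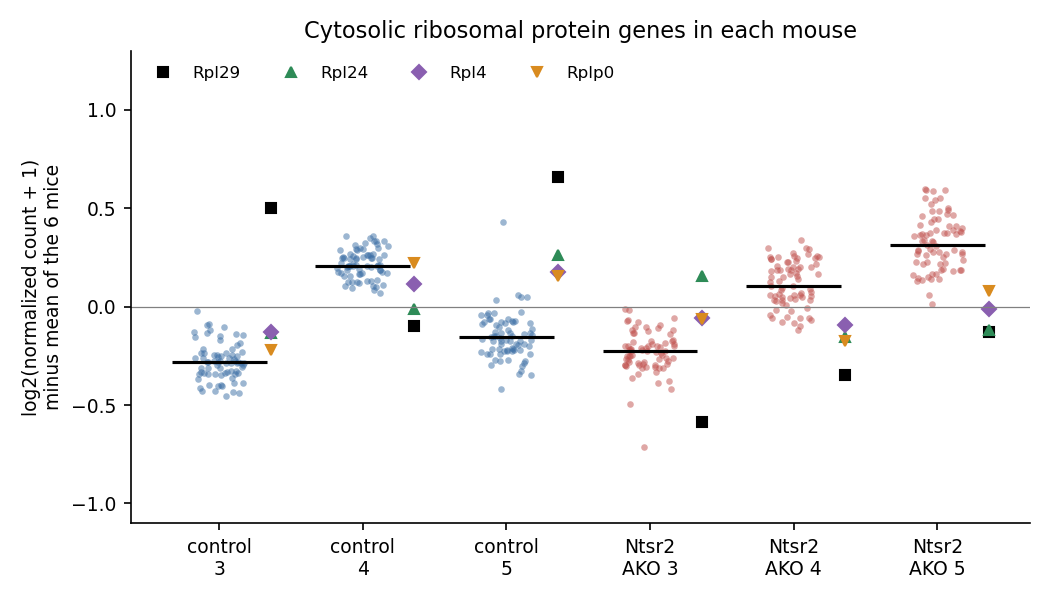
Each point is 1 ribosomal protein gene in 1 mouse, as log2(normalized count + 1) minus the mean of that gene over the 6 mice (y axis), with control mice in blue and Ntsr2 AKO mice in red. Black bars are the medians of all 79 genes and run from -0.28 in control 3 to 0.32 in Ntsr2 AKO 5, while Rpl29, Rpl24, Rpl4 and Rplp0, drawn beside the points, lie above 0 in control 5 and below 0 in Ntsr2 AKO 4; Rpl3l is left out as it is 0 in 3 mice.

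The spread of a typical gene was mostly this common shift. The median SD over the 6 mice was 0.27 (log2), against 0.21 for the 7539 genes with a mean of at least 1000, and it fell to 0.11 once the median gene of each mouse was subtracted. Rps23, a protein of the decoding centre, followed the shift most closely, with an SD of 0.03 after subtraction. The common shift is the median of these same 79 genes, so each gene is part of the measure it is compared with. The correlation with the common shift over the 6 mice was at least 0.8 for 70 of the 79 genes. It is given as a description, since the mice and libraries are shared and the share of other genes at this correlation is not given. It was under 0.5 for Rpl24 (-0.44), Rpl29 (-0.35), Rpl4 (0.21), Rpl3l (0.27) and Rplp0 (0.47).

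Other measures differed between the mice alongside this shift. Other genes with short transcripts and a mean of at least 1000 showed nearly the same pattern. For the 286 such genes with a transcript under 800 bases the medians were -0.25, 0.20 and -0.17 in control mice against -0.20, 0.09 and 0.33 in Ntsr2 AKO mice. For the 2087 genes with transcripts of 4000 bases or more the medians ran the other way, at 0.09, -0.07 and 0.12 against 0.05, -0.04 and -0.16. The ribosomal protein transcripts themselves were short, with a median length of 771 bases, and 68 of the 79 were under 1200 bases. The share of counts from mitochondrially encoded genes was 8.11%, 12.9% and 11.5% in control mice against 9.91%, 10.6% and 12.5% in Ntsr2 AKO mice. Macrophage markers, 12 genes of which 11 were tested, summed to between 38804 and 112043 counts in control mice and between 41910 and 90625 in Ntsr2 AKO mice, with control 4 highest. The sum of 10 stem and progenitor markers was 176465, 319256 and 310900 in control mice against 231218, 212376 and 557177 in Ntsr2 AKO mice. The sum was highest in Ntsr2 AKO 5, the mouse with the highest shift. Matrix genes held most of it there, with 300276 counts for Col3a1, 99542 for Col1a1 and 84368 for Dcn. Cd34, Dpp4, Ly6a and Pi16 were also highest in this mouse, while Pdgfra, Pdgfrb and Fn1 were higher in a control mouse. The sum is therefore no measure of the number of progenitor cells. The 14 B and T lymphocyte markers summed to 2882 in control 3, the mouse with the lowest shift, and to between 381 and 804 in the other mice. The part of transcript length, mitochondrial share and these cell types in the common shift was not tested.

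**Figure D2:**
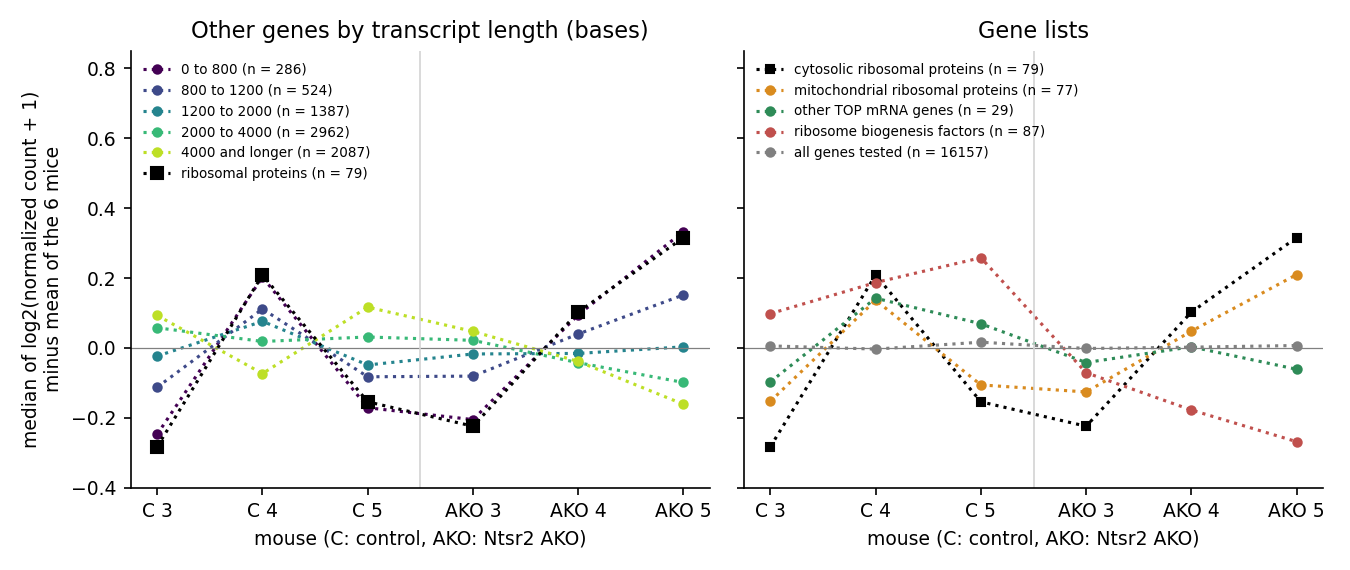
Median of log2(normalized count + 1) minus the mean of each gene over the 6 mice (y axis) for each mouse (x axis), for ribosomal protein genes beside other genes of each length class and beside companion gene lists. Dotted lines only join points of one class; the ribosomal proteins and the other genes under 800 bases nearly coincide, and ribosome biogenesis factors run from 0.26 in control 5 to -0.27 in Ntsr2 AKO 5.

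To examine whether the loss of Ntsr2 in adipocytes changed these genes, each was compared between the genotypes. Of the 79 genes, 69 had a positive and 10 a negative log2FC, where 49.0% of all genes tested were positive, and the median was 0.13 against -0.01 for all genes. The direction held after quantile normalization and after scaling to the same total, with 74 and 75 positive. The shares of all genes that were positive in these fits are not given. Scaling each mouse to its median ribosomal protein gene sets these genes near 0 by construction and left 32 positive. No gene passed an adjusted p of 0.05 in limma, against 1 of all genes tested (0.00619%), and none did in edgeR or DESeq2 on the recovered reads, while DESeq2 called 1.36% of all genes, 0.953% lower and 0.408% higher. An unadjusted p under 0.05 was found for 1 lower gene, Rpl29 (5.27% of all genes), and for 0 higher genes (3.08%). The groups did not overlap in 1 gene that was lower, again Rpl29 (8.16% of all genes), and in 0 that were higher (6.82%). Rpl29 was also the one gene with an unadjusted p under 0.05 in edgeR and in DESeq2. For no gene with a positive value was the difference past the test in these fits with all 6 mice.

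The positive median rested on which mice were compared. It was 0.01 without Ntsr2 AKO 5, with 42 genes positive, and 0.03 without control 3, with 46 positive. Without Ntsr2 AKO 3 it was 0.28, and without control 4 it was 0.26. In the fit without Ntsr2 AKO 3, 5 genes had an unadjusted limma p under 0.05 and were higher. They were Rps15, Rpl22, Rpl36, Rpl13a and Rpl36a, and their lowest limma adjusted p was 0.422. The share of all genes at that unadjusted p in this fit is not given, so these 5 genes are not read as a result. When the 3 mice with muscle transcripts were left out, which leaves 2 control mice and Ntsr2 AKO 3, the median was -0.20 and 3 genes were positive (Rpl3, Rpl17 and Rpl24). Without those mice the share of counts also changed sign, to 0.20 percentage points lower in Ntsr2 AKO, from 0.43 points higher in all 6 mice.

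The 60S subunit held most of the exceptions. Its 48 genes had a median log2FC of 0.14 with 9 negative, and the 31 genes of the 40S subunit had a median of 0.12 with Rps27 (-0.03) the one negative gene. The 4 genes with the most negative values, Rpl29, Rpl39l, Rpl4 and Rplp0, all belong to the 60S subunit. Rps27 turned positive after quantile normalization (0.10) and after scaling to the same total (0.06), and the difference between the subunits was not tested.

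Rpl29 encodes a basic protein on the surface of the 60S subunit and lies on chromosome 9 (GRCm38, 106429454 to 106431568, plus strand). Its normalized counts were 13524, 8904 and 15047 in control mice against 6362, 7501 and 8715 in Ntsr2 AKO mice. Every Ntsr2 AKO mouse lay below every control mouse, although control 4 and Ntsr2 AKO 5 were close. Averages were 12492 ± 3199 and 7526 ± 1176 (SD, n = 3 mice each). In the limma fit over all genes the log2FC was -0.71 with an SE of 0.22, an unadjusted p of 0.0168 and an adjusted p = 0.543. In DESeq2 the adjusted p was 0.115, the lowest over all alternatives. The log2FC stayed between -0.93 and -0.56 with 1 mouse left out, while the groups overlapped after quantile normalization and after scaling to the same total. The unadjusted p in limma rose to 0.0547 without control 3, 0.0536 without control 5 and 0.0607 without Ntsr2 AKO 3. Without the 3 mice with muscle transcripts the log2FC was -0.79 with an unadjusted p of 0.117 in limma. Relative to the median ribosomal protein gene of each mouse it was -0.87 (limma adjusted p = 0.953).

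Rpl24, Rpl4 and Rplp0 lay above their own mean in control 5, where most ribosomal protein genes were low, and below it in Ntsr2 AKO 4, where most were high. Rpl24, at the interface of the subunits, had 1297, 1411 and 1707 normalized counts in control mice against 1585, 1278 and 1308 in Ntsr2 AKO mice. Rpl4, a core protein near the exit tunnel, had 35041, 41410 and 43241 against 36761, 35906 and 37885. Their log2FC values were -0.08 (SE 0.16) and -0.11 (SE 0.14), with limma adjusted p values of 0.905 and 0.840. For Rplp0, the base of the acidic stalk and a common reference gene in qPCR, the counts were 41287, 56186 and 53567 in control mice against 46123, 42557 and 50805 in Ntsr2 AKO mice, with a log2FC of -0.11 (SE 0.17, limma adjusted p = 0.881). None of these 3 differed beyond the spread between mice, and the sign of Rpl24 turned to 0.02 after scaling to the same total.

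Among the genes with the smallest p in the positive direction were Rpl13a, Rpl17, Rpl22, Rps24, Rps19 and Rpl35a. Rpl13a, known for a role outside the ribosome in inflammatory translation control, had 31326, 45489 and 34640 normalized counts in control mice against 36332, 49594 and 63504 in Ntsr2 AKO mice. Ntsr2 AKO 5 was the highest mouse, and control 4 lay above Ntsr2 AKO 3, so the groups overlapped. The log2FC was 0.40 (SE 0.25, limma adjusted p = 0.687). Rps24 and Rps19, 40S proteins needed for 18S rRNA maturation and mutated in Diamond-Blackfan anaemia, had log2FC values of 0.33 each, and Rpl17, Rpl22 and Rpl35a of the 60S subunit had 0.34, 0.30 and 0.31. The limma adjusted p values of these 5 genes lay between 0.687 and 0.735, and in each of them control 4 lay above Ntsr2 AKO 3.

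**Figure D3:**
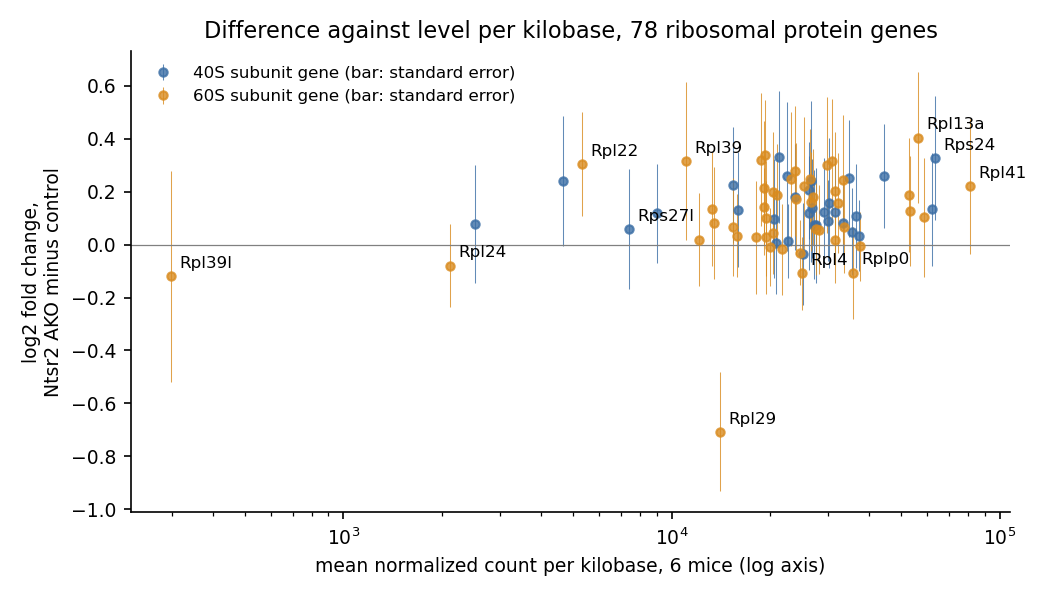
Log2 fold change of each ribosomal protein gene (y axis, bars: standard error from limma) against its mean normalized count per kilobase over the 6 mice (x axis, log scale), with 40S genes in blue and 60S genes in orange. Most points lie between 0 and 0.4 at all levels with bars that reach or nearly reach 0, and Rpl29 at -0.71 stands apart; Rpl3l is not drawn.

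**Figure D4:**
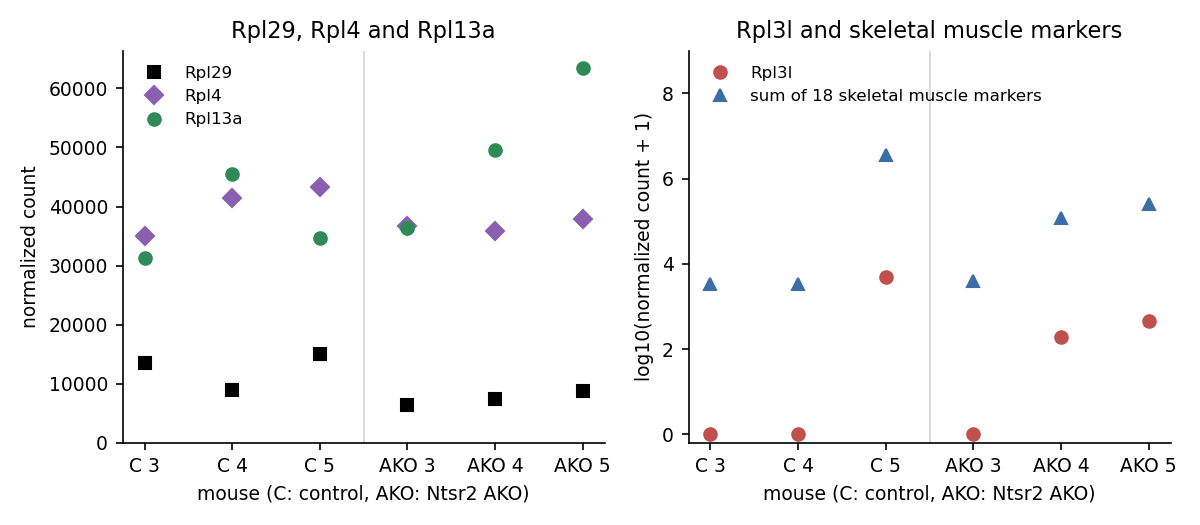
Left, normalized counts (y axis) of Rpl29, Rpl4 and Rpl13a in each mouse; right, log10(normalized count + 1) of Rpl3l and of the sum of 18 skeletal muscle markers in the same mice. Rpl29 lies between 8904 and 15047 in control mice and between 6362 and 8715 in Ntsr2 AKO mice, and Rpl3l is above 0 only in control 5, Ntsr2 AKO 4 and Ntsr2 AKO 5.

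Genes with known special roles did not differ between the genotypes beyond the spread between mice. Rpl5 and Rpl11, which with 5S rRNA bind MDM2 when ribosome assembly fails, had log2FC values of 0.02 (SE 0.18) and 0.20 (SE 0.22). Rps6, the target of S6 kinases, had 29497, 36355 and 31281 normalized counts in control mice against 32387, 33745 and 32874 in Ntsr2 AKO mice, which gave a log2FC of 0.03 (SE 0.13). Its 3 Ntsr2 AKO mice lay within the range of the control mice, with an SD of 688 counts. Rps27a, made as a fusion with ubiquitin, had a log2FC of 0.10, Rpsa, the laminin receptor precursor, of 0.07, and the stalk proteins Rplp1 and Rplp2 of 0.10 and 0.13. The limma adjusted p values of these 7 genes were between 0.812 and 0.983, and the signs of Rpl5, Rps6, Rps27a, Rpsa and Rplp1 turned when control 3 or Ntsr2 AKO 5 was left out.

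Paralogs were read separately, although reads of near-identical copies may have been divided between loci by the counting. Rpl39l had 142, 219 and 259 normalized counts in control mice against 117, 185 and 290 in Ntsr2 AKO mice, far below Rpl39 with means of 6006 ± 1854 and 7517 ± 2381 (SD, n = 3). Rps27l, a p53 target, had means of 3901 ± 907 in control and 4066 ± 960 in Ntsr2 AKO mice, against 8771 ± 1736 and 8554 ± 1613 for Rps27 (SD, n = 3). None of these 4 genes had a limma adjusted p under 0.787. The 20 rows named as ribosomal protein pseudogenes summed to between 0.106% and 0.125% of the counts of the 79 genes in the 6 mice.

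Rpl3l, the paralog of Rpl3 in striated muscle, was listed at 0 in control 3, control 4 and Ntsr2 AKO 3. It had 4939 normalized counts in control 5, 191 in Ntsr2 AKO 4 and 459 in Ntsr2 AKO 5, from 5149, 184 and 454 reads. These were the mice with skeletal muscle transcripts, which made up 5.58%, 0.21% and 0.45% of their counts and at most 0.01% in the others, in which the myosin gene Myh1 was also listed at 0. The order of the 3 mice was the same for Rpl3l and for the muscle markers. The fitted log2FC was positive in limma and -2.91 in DESeq2, so no difference between genotypes is drawn from it. The other ribosomal protein genes with an SD over 0.25 after the common shift were Rpl29, Rpl39l, Rpl24 and Rpl4.

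Ribosomal proteins chosen for a list of genes whose symbols fall outside the rule had similar values. Of 10 listed genes 7 were tested, and 5 had a positive log2FC and 2 a negative one, with a median of 0.20. None had an unadjusted limma p under 0.05. Rps4y2, Rps3a2 and Rps3a3, whose symbols also fall outside the rule, were not on the list. Fau, which encodes a 40S protein fused to a ubiquitin-like protein, had a log2FC of 0.26 (SE 0.20). Rps3a1 had 0.20, Rpl22l1 0.45 and Rpl36al 0.01, and the signalling scaffold Gnb2l1 (Rack1) had -0.03, which turned positive after quantile normalization and after scaling to the same total. Rpl7l1, a nucleolar paralog of Rpl7, had 3878, 4299 and 4291 counts in control mice against 3846, 3787 and 3842 in Ntsr2 AKO mice, which did not overlap (log2FC -0.12, SE 0.10, limma adjusted p = 0.768). With the wider membership the median remained 0.13.

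Ribosome biogenesis factors, which assemble these proteins with rRNA in the nucleolus, mostly had negative values. Of 91 listed genes 87 were tested, and 80 (92.0%) had a negative log2FC, against 51.0% of all genes, with a median of -0.33. After quantile normalization and scaling to the same total, 76 and 76 were negative. After scaling to the median ribosomal protein gene 86 were, but that scaling also lowered the median of all genes. The shares of all genes that were negative in these fits are not given. In limma 42 (48.3%, against 5.27% of all genes) had an unadjusted p under 0.05 and were lower, and 0 were higher (3.08% of all genes). With edgeR 40 of the 87 had an unadjusted p under 0.05, against 1323 of all 16157 genes in either direction. None passed an adjusted p of 0.05 in limma or edgeR. DESeq2 called 9 of the 87, all lower, where it called 0.953% of all genes lower. The groups did not overlap in 49 genes that were lower (56.3%, against 8.16% of all genes) and in 1 that was higher (6.82% of all genes). The list medians by mouse were 0.10, 0.19 and 0.26 in control mice against -0.07, -0.18 and -0.27 in Ntsr2 AKO mice, so every control mouse lay above every Ntsr2 AKO mouse. The nucleolar GTPase gene Gnl3 had 2522, 2832 and 3029 normalized counts in control mice against 1752, 1404 and 1525 in Ntsr2 AKO mice. Its log2FC was -0.84 (SE 0.14, limma adjusted p = 0.466, DESeq2 adjusted p = 1.4e-04). Rrp12, which encodes an export factor for both subunits, had 1254, 1215 and 1975 against 779, 532 and 478 (log2FC -1.31, SE 0.27, limma adjusted p = 0.499).

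The other biogenesis factors past the DESeq2 threshold were Nolc1, Nop58, Heatr1, Ddx21, Nop56, Rrp9 and Noc4l, with a log2FC between -0.86 and -0.69 in limma. Positive values were found for Imp3 (0.15), Polr1c (0.16) and 5 other genes, none past the test. The biogenesis transcripts were longer than those of ribosomal proteins, with a median of 2613 bases. Length classes were compared among genes with a mean of at least 1000 that encode no ribosomal protein. These comparison genes include the biogenesis genes, and biogenesis genes with a lower mean are not in the classes. From 800 to 1200 bases, 6 of 10 biogenesis genes had a negative log2FC with a median of -0.18, where 34.5% of the comparison genes were negative. From 1200 to 2000 bases it was 13 of 13 with a median of -0.33, against 52.7%. Within 2000 to 4000 bases it was 33 of 34 with a median of -0.38. Of the 2962 comparison genes of that length, 63.3% were negative, with a median of -0.08. At 4000 bases or more it was 15 of 15 with a median of -0.48, where 67.8% of the comparison genes were negative. The part of transcript length in the biogenesis values was not tested. Without the 3 mice with muscle transcripts, 77 of the 87 were negative, with a median of -0.20, and 0 had an unadjusted p under 0.05.

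**Figure D5:**
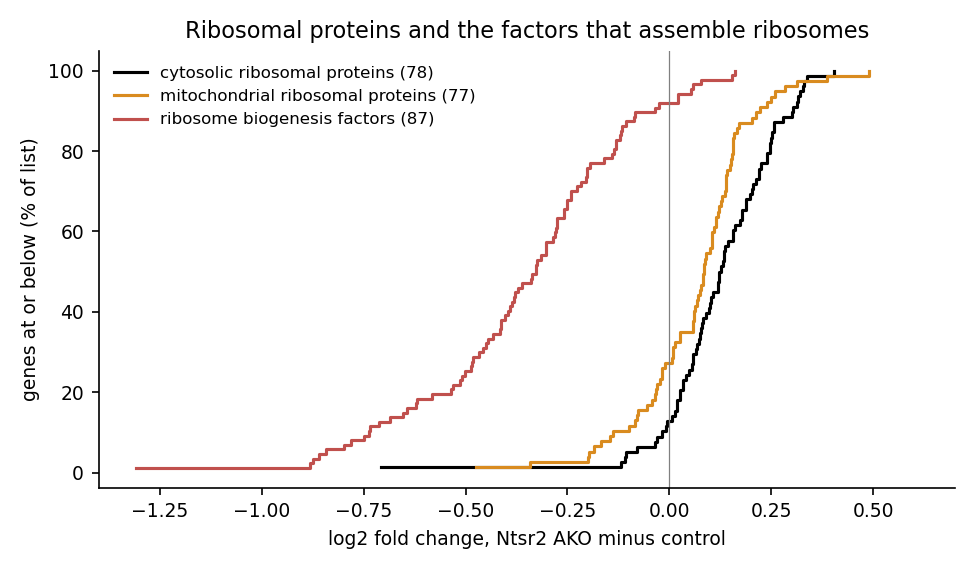
Cumulative share of genes in percent of each list (y axis) at or below a given log2FC, Ntsr2 AKO minus control (x axis), for cytosolic ribosomal proteins without Rpl3l, mitochondrial ribosomal proteins and ribosome biogenesis factors. The biogenesis curve (median -0.33) lies to the left of both ribosomal protein curves, which lie close together with medians of 0.13 and 0.09.

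Mitochondrial ribosomal proteins, which form the separate ribosome of mitochondria, showed a weaker form of the shift between mice. The list medians were -0.15, 0.14 and -0.11 in control mice against -0.13, 0.05 and 0.21 in Ntsr2 AKO mice. Of 77 genes, 56 had a positive and 21 a negative log2FC, with a median of 0.09, which was -0.07 after scaling to the median cytosolic ribosomal protein gene. One had an unadjusted p under 0.05, Mrps18b at -0.48 (SE 0.15, limma adjusted p = 0.523), where 5.27% of all genes were lower at this p, and 0 were higher (3.08% of all genes). Mrpl27 (0.49) and Mrpl14 (0.39) had the smallest p among the positive genes.

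Other genes with TOP mRNAs, mostly translation factors, varied less between the mice, with list medians of -0.10, 0.14 and 0.07 in control mice against -0.04, 0.00 and -0.06 in Ntsr2 AKO mice. Of 29 tested, 17 had a negative and 12 a positive log2FC, with a median of -0.07, which turned to 0.05 after quantile normalization and 0.02 after scaling to the same total. Eif4a2, a paralog of the initiation helicase, had 26240, 26755 and 30463 normalized counts in control mice against 43139, 53757 and 46854 in Ntsr2 AKO mice, which gave a log2FC of 0.78 (SE 0.15, limma adjusted p = 0.499), and DESeq2 called it (adjusted p = 6.5e-05). Vim, the intermediate filament gene, had -0.51 (SE 0.20, limma adjusted p = 0.583). Pabpc1, the poly(A)-binding protein gene, had -0.25 (limma adjusted p = 0.634).

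Of 36 tested genes of the mTORC1 pathway and its control of ribosomal protein mRNAs, 24 had a negative and 12 a positive log2FC, with a median of -0.08, which turned to 0.02 after scaling to the same total. Of these genes, 2 that were lower (5.56%, against 5.27% of all genes) had an unadjusted p under 0.05, a share near that of all genes. One was Myc, a transcription factor known to drive ribosome production, with 2296, 1562 and 2198 normalized counts in control mice against 1143, 628 and 614 in Ntsr2 AKO mice. All Ntsr2 AKO mice lay below all control mice, with a log2FC of -1.39 (SE 0.28, limma adjusted p = 0.499, DESeq2 adjusted p = 0.0039). The other was Eif4ebp2, an inhibitor of cap-dependent initiation, at -0.60 (SE 0.24, limma adjusted p = 0.590). Among the positive genes, Pdcd4 had 0.22 and Rragb, with at most 28.3 counts in any mouse, had 2.52, neither past the test.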

How the data were processed

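RNA-seq of adipose tissue from 3 control and 3 Ntsr2 AKO mice was analysed. The authors purified poly(A) mRNA, used Trimmomatic for trimming, HISAT2 for alignment and StringTie for counts. The submitters' processing notes name mm10, and tool versions and the annotation are not given in the sources used here. The deposited table is a signal of normalized counts, in which reads are scaled by a size factor per mouse. Division by the step of the low values of each column returned whole numbers for 100% of the values (tolerance 0.01), and 0 columns of values were left unused.

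Values were taken as log2(normalized count + 1) and tested with limma 3.58.1 in R 4.3.3 (lmFit, eBayes with trend). All 6 mice entered one fit with no covariate, and p values were adjusted by Benjamini-Hochberg at 0.05. The study's methods name DESeq2 for this comparison. The deposited values are scaled, so edgeR 4.0.16 and DESeq2 1.42.0 served as alternatives on the recovered reads. Each procedure was tested on simulated counts. The other alternatives were pseudocounts of 0.1 and 5, all genes unfiltered or a minimum mean of 50, quantile normalization, scaling to the same total, eBayes with no trend, a block for the replicate number, the omission of each mouse and a wider membership. Scaling to the median ribosomal protein gene, the muscle level as a covariate and the omission of 3 mice were chosen after seeing the data. The member genes and all lists were chosen with earlier results of these data known.

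The genes named are Ntsr2, the 6 ribosomal protein genes of smallest p in each direction, the 5 with the highest level per kilobase, lists of paralogs and of genes with known roles, and the 2 of smallest p in each direction of each companion list. Rps15, Rpl36, Rpl36a, Rps23 and the further biogenesis factors were named after their values were seen. One gene that this rule names is not reported here. Positions and lengths are from GENCODE M21 (the median of basic protein-coding transcripts), and start windows are from RefSeq on GRCm38.p6. At this depth counting error is small for these genes, and precision is limited by the 3 mice per group. No pair of columns was identical or within sampling noise of another.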

Additional observations from a re-analysis of the deposited data

How the results depend on the processing

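No ribosomal protein gene passed an adjusted p of 0.05 under any alternative. Over all genes, 1 gene passed, and 0 did with no filter, without the trend, with the replicate block, in edgeR, after scaling to the same total or to the median ribosomal protein gene, with the muscle covariate, without the 3 mice with muscle transcripts and with any 1 mouse left out, while 220 passed in DESeq2. The same-numbered mice had correlations of deviations of 0.45, -0.24 and 0.41 for the numbers 3, 4 and 5, so the numbers were not taken to pair mice. With the replicate block the median of the ribosomal proteins was 0.13, and 30 biogenesis factors were lower at an unadjusted limma p under 0.05. The share of all genes at that p with the block is not given.

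The count of ribosomal protein genes with an unadjusted p under 0.05 ranged from 0 to 1 (lower, Rpl29) and from 0 to 5 (higher) with 1 mouse left out. The shares of all genes in these fits are not given. Rpl29 lost its unadjusted p under 0.05 without control 3, control 5 or Ntsr2 AKO 3, and the lower gene without overlap fell to 0 after quantile normalization and scaling to the same total. Positive fold changes numbered 42 to 75 with 1 mouse left out, 32 after scaling to the median ribosomal protein gene and 3 without the 3 mice. That scaling moved the median of all genes to -0.16, against -0.03 for the ribosomal proteins, which its construction sets near 0. The median of the ribosomal proteins ranged from 0.01 to 0.28 with 1 mouse left out. Without the 3 mice it was -0.20 (40S -0.21, 60S -0.19), and the difference in share was -0.20 percentage points.

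For the biogenesis factors the median was -0.23 after scaling to the same total, -0.48 after scaling to the median ribosomal protein gene and -0.20 without the 3 mice. After scaling to the same total and to the median ribosomal protein gene, the lower genes at an unadjusted limma p under 0.05 numbered 23 and 21. With 1 mouse left out they numbered 24 to 41 (24 without control 5, 26 without Ntsr2 AKO 4, 27 without Ntsr2 AKO 5). The shares of all genes at this p in these fits are not given. In DESeq2, 9 biogenesis factors passed an adjusted p of 0.05. The cause of these changes was not tested.

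Of 834 values of the 49 named genes under alternatives, 791 kept direction and side of the threshold, 5 passed it in DESeq2 alone and 38 values of 13 genes changed sign, 28 of them with 1 mouse left out. This tally counts no sign change after scaling to the median ribosomal protein gene or without the 3 mice with muscle transcripts. Under those settings 32 and 3 of the 79 ribosomal protein genes were positive, against 69 in the main fit. Sign changes of named genes without those mice, such as Rpl13a, Rps24 and Rps6, are therefore not in the tally. After quantile normalization or scaling to the same total, the log2 fold change of Rpl8 was 0.057 or 0.067, of Rps27 0.10 or 0.062 and of Gnb2l1 0.064 or 0.070, and that of Rpl24 was 0.018 under the latter. Rpl3l was -2.90 in edgeR and -2.91 in DESeq2, and Rpl36al was -0.0015 with the muscle covariate. With 1 mouse left out the ranges were -0.18 to 0.033 for Rpl24, -0.45 to 0.21 for Rpl39l, -0.068 to 0.032 for Rpl8, -0.080 to 0.28 for Rplp1, -0.66 to 5.48 for Rpl3l, -0.12 to 0.24 for Rps27l, -0.16 to 0.19 for Rpl36al, -0.081 to 0.25 for Rpsa, -0.031 to 0.12 for Rps6, -0.12 to 0.13 for Rpl5, -0.072 to 0.27 for Rps27a, -0.18 to 0.12 for Rps27 and -0.16 to 0.080 for Gnb2l1.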
